A study of Mus musculus with 9 samples.

Results

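Keratins are the intermediate filament proteins of epithelial cells. A filament is built from pairs of a type I (acidic) and a type II (basic) keratin, so the type I genes and the type II genes are used together, and each kind of epithelium has its own set. The single-layered lining of the colon uses the simple epithelial keratins Krt8, Krt18, Krt19 and Krt20. Stratified epithelia such as the epidermis and the oesophagus carry Krt5 and Krt14 in their basal layer and Krt1, Krt10, Krt4 or Krt13 above it, and hair and nail are built from hard keratins.

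The keratin genes were taken as all symbols made of Krt followed only by digits, with the values of a repeated symbol summed. Of 47 such symbols, 43 were above 0 in at least 1 sample, out of 21498 symbols in all. Krt9, Krt71, Krt75 and Krt76 were listed at 0 in all 9 samples. RNA of the colon of 9 male ICR mice was sequenced, and levels are given in FPKM (fragments scaled to transcript length and to the mapped total). The Control group (n = 3) received neither AOM/DSS nor antibody, and its tissue is labelled normal colorectal mucosa. Both other groups were given the carcinogen azoxymethane (AOM, a single 10 mg/kg dose at 5 weeks of age) and then 3 cycles of the colitis-inducing dextran sulfate sodium (DSS), at 2% for 7 days and then at 1.5% for 5 days in each of the later cycles. During the DSS cycles they also received an antibody at 1.5 mg/kg, either a negative control IgG (AOM/DSS + IgG Ab, n = 3) or an antibody against S100a9 (AOM/DSS + anti-S100a9 Ab, n = 3), and colon was taken at the end of the study, in week 18. S100a9 binds calcium and is abundant in neutrophils. The tissue of both AOM/DSS groups is labelled colorectal adenocarcinoma. The antibody group is therefore compared with tissue that had the same carcinogen and DSS, whereas the Control lacked both agents and any antibody.

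Colon epithelium was present in every sample, with Epcam between 584 and 890 FPKM and Cdh1 between 151 and 206 FPKM. Gapdh, Ppia and Rps18, which every cell uses, reached at most 0.755, 0.974 and 0.391 FPKM, so the level of a gene with many near-identical copies can be understated in these files. Depth is not given in the files. Judged from the lowest steps in the values, 0.1 FPKM of a 1.5 kb transcript is 3.33 to 4.19 fragments. In bulk tissue, fewer cells of a type and less RNA per cell cannot be told apart.

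The genes sit in the 2 keratin clusters of the mouse genome (GRCm38): 25 of the 47 symbols lie on chromosome 11, which holds the type I genes, and 22 on chromosome 15, which holds the type II genes and Krt18. The sequences just upstream of 5 of these genes are shown because they flank 4 genes called in both comparisons below (Krt23, Krt36, Krt13, Krt84) and the neighbour of Krt23 that had the opposite sign (Krt20). Each is the 250 bases before the gene's start in RefSeq (GRCm38.p6), written 5′ to 3′ on the gene's own strand. Capitals mark TATAAA, the core of the TATA box, on either strand, and TGANTCA, a looser pattern than the motif of AP-1 factors, as it allows any base in the middle. The TCF/LEF core CTTTGA, also searched on both strands, was found in none of the 5.
Krt23, chr11:99493121-99493370, minus strand: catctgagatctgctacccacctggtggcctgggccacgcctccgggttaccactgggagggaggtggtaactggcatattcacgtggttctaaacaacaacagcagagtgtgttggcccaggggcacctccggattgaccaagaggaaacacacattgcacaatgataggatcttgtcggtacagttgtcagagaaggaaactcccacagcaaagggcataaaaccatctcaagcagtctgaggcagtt
Krt20, chr11:99438154-99438403, minus strand: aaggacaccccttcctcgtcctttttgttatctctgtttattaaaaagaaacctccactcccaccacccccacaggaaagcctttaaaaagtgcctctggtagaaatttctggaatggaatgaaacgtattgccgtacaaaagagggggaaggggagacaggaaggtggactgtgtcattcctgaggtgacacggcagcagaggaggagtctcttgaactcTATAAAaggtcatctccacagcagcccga
Krt36, chr11:100105627-100105876, minus strand: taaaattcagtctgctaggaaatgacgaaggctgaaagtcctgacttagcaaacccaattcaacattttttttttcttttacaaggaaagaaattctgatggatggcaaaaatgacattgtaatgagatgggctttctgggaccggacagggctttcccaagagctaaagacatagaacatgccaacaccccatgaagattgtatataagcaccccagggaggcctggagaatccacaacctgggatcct
Krt13, chr11:100121567-100121816, minus strand: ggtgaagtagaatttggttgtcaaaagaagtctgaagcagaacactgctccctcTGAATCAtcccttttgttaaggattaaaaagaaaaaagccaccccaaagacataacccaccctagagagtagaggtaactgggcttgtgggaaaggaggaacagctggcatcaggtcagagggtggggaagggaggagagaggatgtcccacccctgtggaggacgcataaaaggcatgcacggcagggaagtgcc
Krt84, chr15:101532821-101533070, minus strand: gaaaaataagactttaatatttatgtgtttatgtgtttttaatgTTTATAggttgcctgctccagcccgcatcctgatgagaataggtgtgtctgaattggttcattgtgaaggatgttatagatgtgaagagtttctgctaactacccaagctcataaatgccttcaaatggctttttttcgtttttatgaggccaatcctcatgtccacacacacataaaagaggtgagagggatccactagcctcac
Of the keratin genes above 0, 30 had a promoter in the RefSeq table. TATAAA occurred within the 250 bases of 14 of these 30, against 12.4% of all 32851 promoters, and on the gene's strand 20 to 40 bases before the start in 11 of 30 (36.7%), against 1.99% of all promoters. CTTTGA occurred in 6 of 30, against 13.8% of all promoters, and TGANTCA in 1 of 30 (Krt13), against 6.75%. Krt20 had a TATAAA 29 bases before its start, and of the 5 sequences shown only Krt13 holds TGANTCA, there as TGAATCA. Another Krt13 promoter, not shown, holds 2 matches to TGANTCA, 183 and 34 bases before its start, both as TGACTCA. These matches describe letters in the sequence and not binding.

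In the normal colon the keratin transcripts were almost entirely of 4 genes. Krt19, a type I keratin of simple epithelia, was the most abundant in every sample, with 1844, 2273 and 2587 FPKM in the Control mice. Krt8, the type II partner in the colon, was listed at 918, 1266 and 1220 FPKM. Krt20, a type I keratin of differentiated surface enterocytes, had 278, 294 and 236 FPKM. Krt18, the usual type I partner of Krt8, had 164, 240 and 256 FPKM. These levels stand well apart from the rest: the 37 genes outside the simple epithelial group summed to 12.4 ± 2.18 FPKM (SD, n = 3), which was 0.319% ± 0.0382 of all keratin FPKM.

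**Figure D1:**
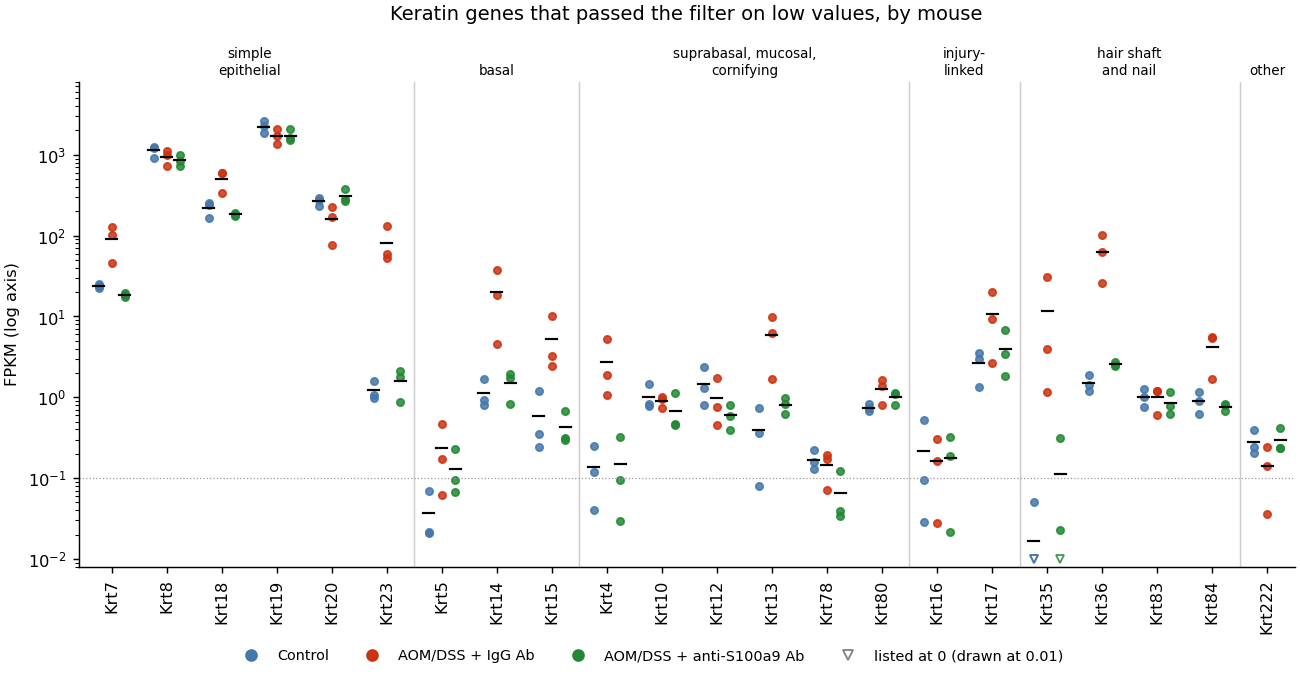
Level in FPKM (log axis) of each of the 22 keratin genes that passed the filter on low values, with 1 point per mouse, a bar at each group's mean, and triangles for values listed at 0. The 3 IgG Ab points of Krt23, Krt36, Krt14, Krt15, Krt4, Krt13, Krt84, Krt35, Krt7 and Krt18 lie above the Control and the anti-S100a9 Ab points, while Krt8 and Krt19 overlap. Such separation was common: of all genes tested, 20.7% had every IgG Ab value above every Control value. In 28.5% every anti-S100a9 Ab value was below every IgG Ab value.

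The summed keratin level overlapped between the groups. It came to 3896 ± 579 FPKM (SD, n = 3) in Control, 3629 ± 526 FPKM with IgG Ab and 3108 ± 494 FPKM with anti-S100a9 Ab, which was about 1.03%, 1.02% and 0.942% of all FPKM. What differed was the make-up. Genes outside the simple epithelial group took 6.86%, 2.68% and 1.81% of the keratin FPKM in the 3 IgG Ab mice, and 0.339%, 0.275% and 0.343% in the Control mice. In the anti-S100a9 Ab mice the share lay between 0.367% and 0.639%. Krt19 made up 41.8%, 49.3% and 49.5% of the keratin FPKM in the IgG Ab mice, below every Control mouse (55.3% to 59.6%) and every anti-S100a9 Ab mouse (53.2% to 56.9%). These shares are tied together, since a rise of any gene lowers the share of the others.

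**Figure D2:**
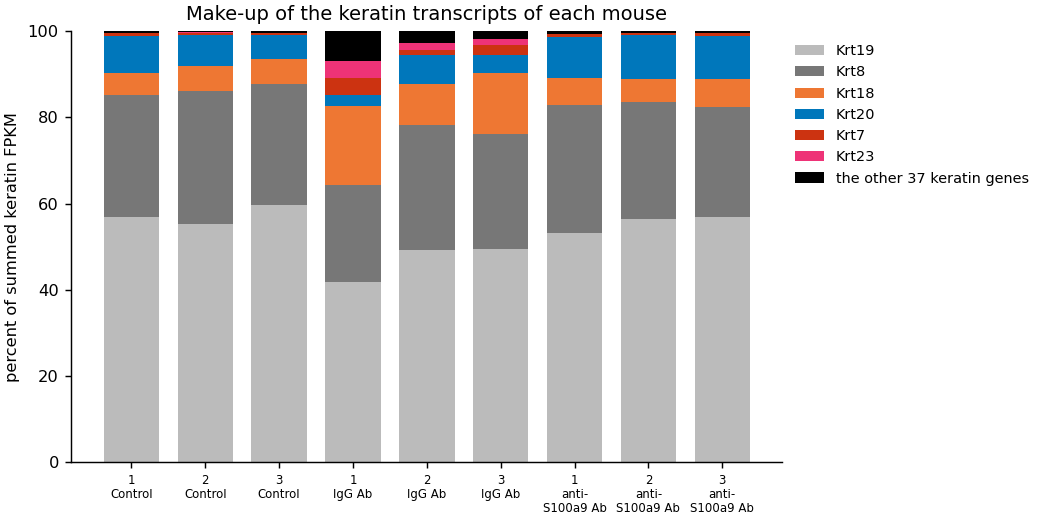
Share of the summed keratin FPKM (percent) taken by each of the 6 simple epithelial keratins and by the other 37 genes together, with 1 stacked bar per mouse. The bars of the IgG Ab mice hold more Krt18, Krt7, Krt23 and other keratins, with 6.86%, 2.68% and 1.81% outside the simple epithelial group.

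The first comparison, AOM/DSS + IgG Ab vs Control, asks which keratins differ between AOM/DSS tissue and normal mucosa. Differences are in log2(FPKM + 0.1), which understates the change of low genes, and were tested with limma across 15278 genes, with a Benjamini-Hochberg adjusted p under 0.05 as the call. Of the 43 keratin genes, 22 passed the filter on low values (0.1 FPKM in at least 3 samples). Of these 22, 10 rose and 0 fell, against 8.18% of all genes tested that were higher and 3.01% that were lower. By an unadjusted p under 0.05 with more than 2-fold, the threshold used in the study, 12 were higher and 0 lower, against 8.43% and 5.19% of all genes. The 2 that this adds are Krt5 and Krt17. Unadjusted p was under 0.05 for 13 of the 22, against 4507 of the 15278 genes tested. The only 1 of these 13 that was lower was Krt20. The median difference was 1.15 over the 22 keratins and 0.09 over all genes. The 2 groups did not overlap for 10 keratins (higher) and for 1 (lower, Krt20), against 20.7% and 10.2% of all genes tested. The filter favours genes high in 1 group: Krt35 reached 0.1 FPKM in 3 IgG Ab mice, 1 anti-S100a9 Ab mouse and 0 Control mice. Krt35 is 1 of the 10 that rose, and its call is no support for a difference.

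The second comparison set the anti-S100a9 Ab mice against the IgG Ab mice, both given AOM/DSS, and asks which keratins differ with the antibody. It shares the IgG Ab mice with the first, so the 2 sets of differences are not independent, and the values of each comparison are given side by side below. Here 0 keratins were higher and 10 fell, against 6.72% higher and 14.4% lower of all genes tested. The 10 again include Krt35, which passed the filter through the IgG Ab mice. Unadjusted p was under 0.05 for 11 of the 22, against 5978 of the 15278 genes tested. The only 1 of these 11 that was higher was Krt20. The median difference was −0.87 over the 22 keratins and −0.06 over all genes. These 2 groups did not overlap for 10 keratins (lower) and for 1 (higher, Krt20), against 28.5% and 18.5% of all genes tested. By the study's threshold 1 keratin was higher (Krt20) and 10 were lower, against 7.64% and 8.38% of all genes.

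**Figure D3:**
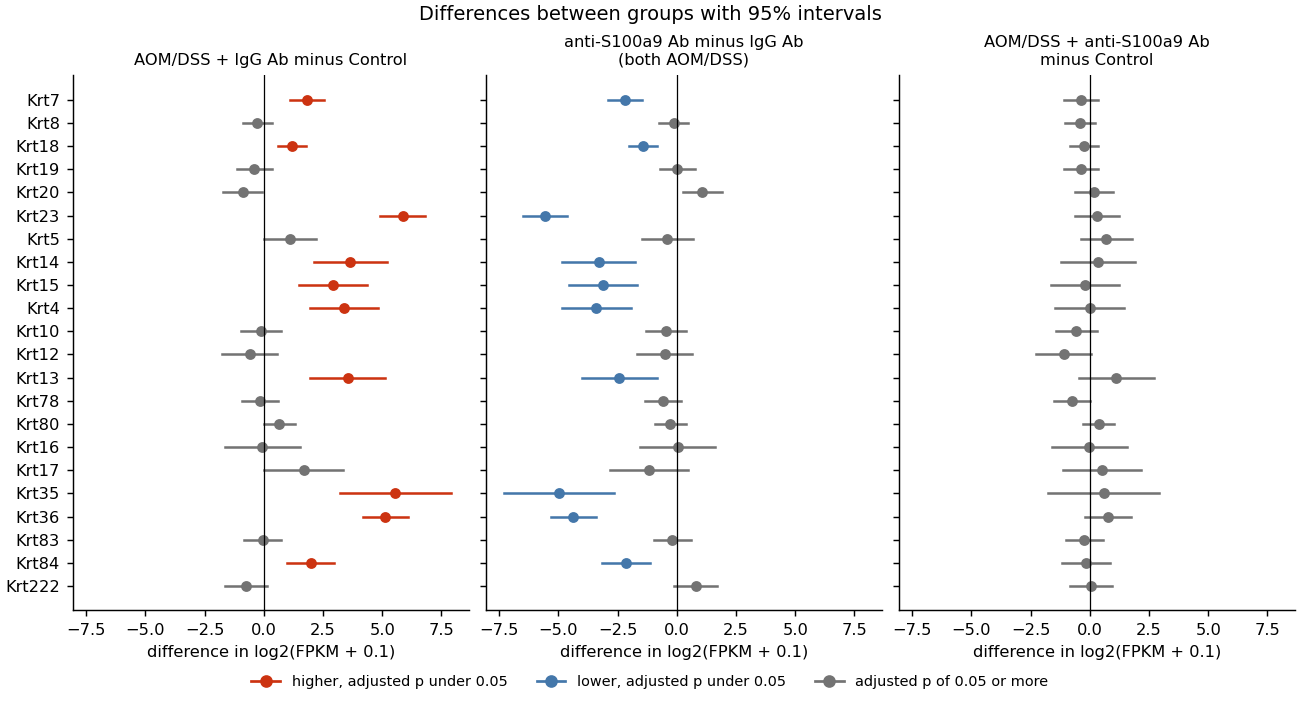
Difference in log2(FPKM + 0.1) between groups (points) with its 95% interval from limma (lines) for the 22 keratin genes tested, in each of the 3 comparisons. Each interval uses a spread pooled over all 3 groups. Red marks an adjusted p under 0.05 with a higher level and blue with a lower level. Krt23 differs by 5.86 in the first panel and by −5.55 in the second, and no point of the third panel is called.

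Among the simple epithelial keratins the abundant pair Krt8 and Krt19 was not called in either comparison. Krt19 had 1345, 1698 and 2091 FPKM in the IgG Ab mice and 1505, 2075 and 1605 FPKM in the anti-S100a9 Ab mice. Its difference was −0.39 (SE 0.32, limma adjusted p = 0.44) from Control to IgG Ab and 0.02 (SE 0.32, limma adjusted p = 0.97) from IgG Ab to anti-S100a9 Ab. For Krt8, with 723, 994 and 1127 FPKM in the IgG Ab mice and 839, 1003 and 722 FPKM in the anti-S100a9 Ab mice, the 95% intervals were −0.89 to 0.35 and −0.76 to 0.48. Groups overlapped for both genes. Of the 50-base stretches of Krt8, 29.7% also occur elsewhere, mostly in its pseudogene Krt8-ps, so its level is uncertain.

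Krt18 rose while its partner Krt8 was not called. It had 596, 334 and 595 FPKM in the IgG Ab mice, above every Control mouse, and 177, 193 and 180 FPKM in the anti-S100a9 Ab mice. The difference was 1.19 (SE 0.27, limma adjusted p = 0.026) against Control, a 2.31-fold ratio of means, and −1.42 (SE 0.27, limma adjusted p = 0.013) from IgG Ab to anti-S100a9 Ab. The ratio of Krt18 to Krt8 was 0.179, 0.190 and 0.210 in the Control mice, 0.824, 0.337 and 0.528 in the IgG Ab mice and 0.211, 0.193 and 0.250 in the anti-S100a9 Ab mice. The first call was lost when Control mouse 1, Control mouse 2, IgG Ab mouse 1 or IgG Ab mouse 3 was left out, and the second without anti-S100a9 Ab mouse 2.

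Krt7, a type II keratin of ductal and transitional epithelia, had 23.8, 22.5 and 24.9 FPKM in the Control mice and 127, 45.4 and 101 FPKM in the IgG Ab mice. Its levels were 19.3, 18.2 and 17.5 FPKM in the anti-S100a9 Ab mice, each below every Control mouse. The differences were 1.81 (SE 0.32, limma adjusted p = 0.011) and −2.18 (SE 0.32, limma adjusted p = 0.0062). An antisense gene, Gm671, overlaps its exons, and without a stated strand the reads of the 2 cannot be told apart.

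Krt23 and Krt20 lie next to each other on chromosome 11, from 99477974 to 99493137 and from 99428403 to 99438150, and their differences had opposite signs. Krt23, a type I keratin, had 1.60, 0.994 and 1.06 FPKM in the Control mice. All 3 IgG Ab mice stood far above that, at 130, 53.6 and 59.7 FPKM, and the anti-S100a9 Ab mice had 2.09, 1.80 and 0.869 FPKM. The differences were 5.86 (SE 0.41, limma adjusted p = 0.00028), a 66.7-fold ratio of means, and −5.55 (SE 0.41, limma adjusted p = 0.00096). No 50-base stretch of Krt23 was shared with another gene. Krt20 had 76.5, 227 and 172 FPKM in the IgG Ab mice, all below the Control mice and all below the anti-S100a9 Ab mice, which had 266, 374 and 282 FPKM. The differences were −0.90 (SE 0.36, limma adjusted p = 0.14) and 1.08 (SE 0.36, limma adjusted p = 0.062), so neither was called. Without IgG Ab mouse 2 both passed, with differences of −1.23 and 1.41.

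In the basal group of stratified epithelia, 2 of 3 genes rose against Control and fell with the antibody. Krt14 is the type I keratin of basal keratinocytes. Its levels were 0.932, 0.797 and 1.68 FPKM in the Control mice, 37.1, 4.63 and 18.6 FPKM in the IgG Ab mice and 1.95, 1.74 and 0.819 FPKM in the anti-S100a9 Ab mice. The IgG Ab mice differed 8.02-fold among themselves, and the group did not overlap the others. The differences were 3.66 (SE 0.69, limma adjusted p = 0.013) and −3.30 (SE 0.69, limma adjusted p = 0.017). Krt15, a type I keratin of basal and hair-bulge cells, had 0.352, 0.242 and 1.18 FPKM, then 10.0, 3.21 and 2.45 FPKM, then 0.677, 0.317 and 0.298 FPKM. Its differences were 2.92 (SE 0.63, limma adjusted p = 0.023) and −3.13 (SE 0.63, limma adjusted p = 0.016). Krt5, the type II partner of Krt14 in the epidermis, stayed near the limit of detection: its levels were 0.0617, 0.172 and 0.468 FPKM in the IgG Ab mice, and the highest Control value was 0.0700 FPKM. Its difference of 1.11 (SE 0.48, limma adjusted p = 0.16) was not called. Krt14 lost its first call without Control mouse 1 or 2 and its second without anti-S100a9 Ab mouse 2 or 3, and Krt15 lost them without the same mice and, in the first, IgG Ab mouse 1. Of the 50-base stretches of Krt14, 14.4% also occur in Krt16 or Krt17, so part of its reads could belong to them.

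The mucosal and cornifying group held 11 genes, of which 6 passed the filter. Krt13 and Krt4, the type I and type II pair of the internal stratified mucosa such as oesophagus, both rose and fell. Krt13 had 0.746, 0.0808 and 0.357 FPKM in the Control mice, 6.18, 1.66 and 9.84 FPKM in the IgG Ab mice and 0.983, 0.827 and 0.614 FPKM in the anti-S100a9 Ab mice. Its differences were 3.54 (SE 0.70, limma adjusted p = 0.016) and −2.42 (SE 0.70, limma adjusted p = 0.042). Krt4 had 0.249, 0.120 and 0.0405 FPKM, then 5.22, 1.06 and 1.91 FPKM, then 0.320, 0.0299 and 0.0951 FPKM, with differences of 3.39 (SE 0.64, limma adjusted p = 0.014) and −3.40 (SE 0.64, limma adjusted p = 0.013). In both, the IgG Ab mice stood apart from the other 6. The second call of Krt13 was the least stable of all: it held in 4 of 9 fits without 1 mouse and in 6 of 11 other alternatives, whose adjusted p reached 0.066. The first calls of both genes were lost without Control mouse 2, and the second call of Krt4 without anti-S100a9 Ab mouse 2. Krt10, Krt12, Krt78 and Krt80 were not called, with the suprabasal epidermal keratin Krt1 at 0.0864 FPKM or less in every sample and Krt10 at 1.01, 0.963 and 0.729 FPKM in the IgG Ab mice against 0.823, 0.777 and 1.45 FPKM in the Control mice. Krt12 shares 42% of its 50-base stretches with the antisense gene A830036E02Rik and is uncertain.

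Of the injury-linked keratins, Krt17 had 20.3, 2.68 and 9.35 FPKM in the IgG Ab mice and 1.32, 3.55 and 3.00 FPKM in the Control mice, so the groups overlapped. Its difference of 1.69 (SE 0.73, limma adjusted p = 0.16) was not called. Krt16 was at 0.517 FPKM or less in every sample and was not called. Krt6a, a keratin induced in wounded epidermis, falls outside the rule because of its letter. It was listed at 0 in all 3 Control mice, at 0.595, 0.250 and 0.776 FPKM in the IgG Ab mice and at 0.142, 0.0145 and 0 FPKM in the anti-S100a9 Ab mice. It passed the filter through the IgG Ab mice, where it was high, so no test of it is given. The other 3 keratins with a letter in their symbol, Krt6b, Krt33a and Krt33b, did not pass the filter.

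Hard keratins of hair and nail held some of the largest differences. Of 13 genes, 4 passed the filter and 3 of these rose and fell: Krt36, Krt35 and Krt84. Krt36, a type I hair keratin, had 1.90, 1.18 and 1.43 FPKM in the Control mice and 101, 63.5 and 26.2 FPKM in the IgG Ab mice, all far above. In the anti-S100a9 Ab mice it had 2.73, 2.52 and 2.47 FPKM. Its differences were 5.13 (SE 0.42, limma adjusted p = 0.00050), a 42.2-fold ratio of means, and −4.37 (SE 0.42, limma adjusted p = 0.0018). Krt35, a type I keratin of the hair cortex and cuticle, was at 0.0507, 0 and 0 FPKM in the Control mice, about 3 fragments in all, and at 30.5, 3.91 and 1.17 FPKM in the IgG Ab mice, a 26-fold spread. The anti-S100a9 Ab mice had 0.312, 0.0226 and 0 FPKM. Its differences were 5.55 (SE 1.03) and −4.97 (SE 1.03). Krt35 passed the filter through the IgG Ab mice, where it was high, so no p-value of it is given. Its place among the called genes is no support for a difference. With so little in Control the size rests on the pseudocount: it was 2.77 with a pseudocount of 1, which ended the call, and 8.16 with 0.01. Krt84, a type II hair keratin, had 0.903, 1.16 and 0.628 FPKM, then 5.59, 5.37 and 1.68 FPKM, then 0.795, 0.837 and 0.673 FPKM, with differences of 1.97 (SE 0.44, limma adjusted p = 0.026) and −2.14 (SE 0.44, limma adjusted p = 0.017). Krt83 was at 0.610 to 1.25 FPKM in all samples and was not called. The first call of Krt35 was also lost without Control mouse 2 and its second without anti-S100a9 Ab mouse 2 or 3. Krt84 lost its first call when any of the Control mice, IgG Ab mouse 1 or IgG Ab mouse 2 was left out, and its second when any of the anti-S100a9 Ab mice was left out.

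Summed over the 13 hair and nail genes, the level was 4.10, 3.11 and 3.17 FPKM in the Control mice, 138, 74.2 and 30.5 FPKM in the IgG Ab mice and 4.49, 4.20 and 4.32 FPKM in the anti-S100a9 Ab mice. Most of each IgG Ab sum was Krt36 (101, 63.5 and 26.2 FPKM), and in IgG Ab mouse 1 Krt35 added 30.5 FPKM. The sum therefore does not speak for the other hair and nail genes. Of the members below the filter, 3 were 0 in every Control mouse and above 0 in every IgG Ab mouse. Of these, Krt32 was the highest, at 0.709, 0.0844 and 0.150 FPKM, and Krt34 and Krt39 reached 0.0846 and 0.217 FPKM. The remaining hair and nail genes, and all 7 detected keratins of the inner root sheath of the hair, stayed close to 0: the inner root sheath genes summed to 0.145 FPKM or less in every sample. In all, 21 members were below the filter, none above 0.709 FPKM, and 14 of them were above 0 in at most 2 samples. Krt222, which is related to type I keratins, was at 0.0358 to 0.413 FPKM and was not called.

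**Figure D4:**
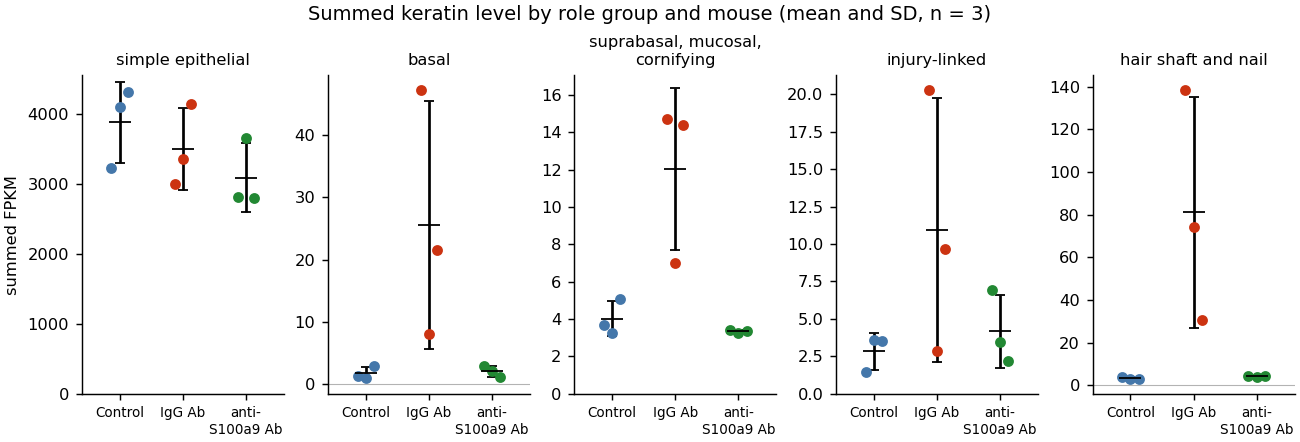
Summed FPKM of the keratin genes in each role group, with 1 point per mouse and the mean and SD of 3 mice; the vertical axes differ between panels. The simple epithelial sums overlap between the groups, whereas the hair and nail sum is 138, 74.2 and 30.5 FPKM in the IgG Ab mice and under 5 FPKM in the other 6. Krt36 alone made up most of each IgG Ab sum of hair and nail genes.

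Of the called genes of chromosome 11, Krt35 (which passed the filter through the IgG Ab mice), Krt36, Krt13 and Krt15 follow each other between 100092193 and 100135928. All 4 rose in the first comparison and fell in the second. The next gene, Krt19 (100140810 to 100148665), was not called, and Krt14 lies beyond it (100203162 to 100207548). Krt23 and Krt14 had no called keratin gene next to them. On chromosome 15, Krt18 (102028180 to 102032027) rose and its neighbour Krt8 (101996698 to 102004482) was not called.

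**Figure D5:**
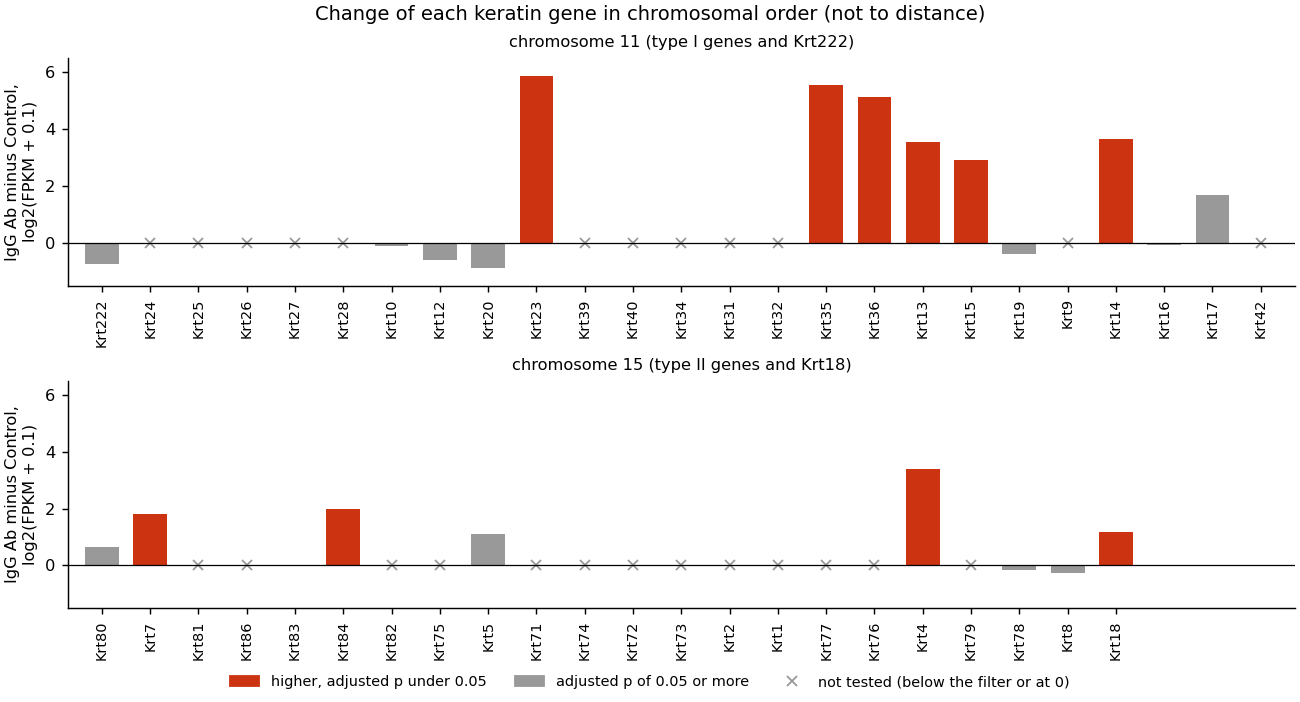
Difference in log2(FPKM + 0.1) between AOM/DSS + IgG Ab and Control for each keratin gene in its order along chromosomes 11 and 15, evenly spaced; crosses are genes not tested. Krt35 (which passed the filter through the IgG Ab mice), Krt36, Krt13 and Krt15 form an unbroken run of called genes beside Krt19, which is not called.

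The third comparison, AOM/DSS + anti-S100a9 Ab vs Control, asks how far the keratins of antibody-treated tissue differ from normal mucosa. None of the 22 keratins was called by limma in either direction. The background of calls is as low, with 0.00655% of all genes tested higher and 0.00655% lower, so this count says little about keratins. Unadjusted p was under 0.05 for 0 of the 22, against 2439 of the 15278 genes tested. By the study's threshold 0 keratins were higher and 0 lower, against 2.28% and 0.864% of all genes. Krt23 differed by 0.30 (95% interval −0.63 to 1.23, limma adjusted p = 0.73) and Krt36 by 0.76 (−0.20 to 1.72, limma adjusted p = 0.38). The intervals of the abundant genes were −0.84 to 0.37 for Krt18, −1.10 to 0.36 for Krt19, −1.03 to 0.21 for Krt8 and −0.64 to 1.00 for Krt20, and that of Krt7 was −1.09 to 0.36. The groups did not overlap for Krt36 (higher) and for Krt7 and Krt78 (lower), against 17.3% of all genes without overlap and higher and 13.7% lower.

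The calls rest on few mice. Krt23, Krt36 and Krt7 were called in both comparisons in all 9 fits that left out 1 mouse. Without Control mouse 2 only these 3 of the 10 were called in the first comparison, and 6 without Control mouse 1. In the second comparison 3 remained without anti-S100a9 Ab mouse 2 and 5 without anti-S100a9 Ab mouse 3. Within the IgG Ab group the mice were uneven: mouse 1 had the highest value in 9 of the 10 called genes, and mouse 3 in 1, Krt13. Without mouse 1, 7 of the 10 were called.

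Other genes of keratin-bearing epithelia give context. Dsg1c, Dsg3 and Dsg4, desmosomal cadherins of stratified epithelia and hair, passed the filter mainly or only through the IgG Ab mice, so they are given as values without a count. Dsg3 was 0 in all 3 Control mice, at 1.87, 0.723 and 0.384 FPKM in the IgG Ab mice and at 0.0828, 0 and 0 FPKM in the anti-S100a9 Ab mice. Dsg4 was 0 in all 3 Control mice and at 0.633, 0.384 and 0.112 FPKM in the IgG Ab mice, and Dsg1c reached 0.301 FPKM in IgG Ab mouse 1 and 0.0140 FPKM or less outside that group. With the antibody the desmosomal plaque genes Jup and Pkp3 fell, by 0.70 and 0.63 on the log2 scale (limma adjusted p = 0.027 and 0.045), where 14.4% of all genes tested were lower. They were among 13 desmosome genes tested. Dsc2, Dsg2, Dsp and Perp (positive differences) and Dsc3, Pkp1, Pkp2 and Pkp4 (negative differences) were not called. Of 8 hemidesmosome and plakin genes, Col17a1 rose by 3.01 (SE 0.59, limma adjusted p = 0.016) and Evpl fell, against 8.18% of all genes tested higher and 3.01% lower. With the antibody Dst, a plakin, rose while Col17a1 and Cd151 fell, against 6.72% of all genes higher and 14.4% lower. Of 13 other intermediate filament genes limma called 0 against Control. By the study's threshold 1 was higher and 2 were lower, against 8.43% and 5.19% of all genes. With the antibody Synm rose, and Nes and Vim fell, against 6.72% of all genes higher and 14.4% lower by adjusted p.

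Markers of other cell types were examined beside the keratins. Against Control, 8.18% of all genes tested were higher and 3.01% lower, and of 10 stratified squamous markers 3 rose (Mt4, Sprr1a and Dsg3, the last of which passed the filter only through the IgG Ab mice) and Tgm3 fell. The squamous list summed to 146, 114 and 158 FPKM in the Control mice and 1761, 781 and 422 FPKM in the IgG Ab mice. The largest member in the IgG Ab mice was Mt4, a metallothionein of stratified epithelia, at 1592, 599 and 295 FPKM. Most of each IgG Ab sum was thus this 1 gene, and the sum does not speak for the other squamous markers. Trp63, the factor that defines squamous basal cells, was at 0.0223 FPKM or less in every sample. Of the hair follicle list, Dlx3, which reached 0.1 FPKM in no Control mouse and passed the filter through the IgG Ab mice, was at 22.1, 4.39 and 4.16 FPKM in the IgG Ab mice and 0.0709 FPKM or less in the Control mice. The hair follicle list summed to 1.53, 1.72 and 1.12 FPKM in the Control mice and 23.8, 7.70 and 6.70 FPKM in the IgG Ab mice, with Hoxc13, which defines hair-forming cells, at 0 in all 9 samples. Dlx3 alone made up most of each IgG Ab sum of this list. Of the colon epithelium list, 0 rose and 2 of 10 fell, Car1 and Slc26a3, an enzyme and an ion transporter of mature surface cells. Slc26a3 was at 200, 186 and 85.1 FPKM in the Control mice and 2.79, 29.9 and 8.26 FPKM in the IgG Ab mice. IgG Ab mouse 1, which had the highest value in 9 of the called keratins, also had the lowest colon epithelium sum (1826 FPKM), the lowest smooth muscle sum (530 FPKM, against 1107 and 3300 FPKM in the other IgG Ab mice) and the highest squamous sum. Most of that squamous sum was Mt4. Mesothelium, which also carries simple keratins, had 1 of 4 markers called higher (Msln), and its list summed to 2.15, 1.57 and 3.38 FPKM in the Control mice, 10.7, 10.2 and 14.3 FPKM in the IgG Ab mice and 1.42, 0.702 and 4.71 FPKM in the anti-S100a9 Ab mice. Msln alone made up most of each IgG Ab sum, at 10.6, 5.49 and 13.7 FPKM. Upk1b, Upk3b and Wt1 were not called, so this sum does not speak for them. Of 7 leukocyte markers 1 was higher against Control (Csf3r), and of 4 adipocyte markers 3 were lower (Adipoq, Cfd and Plin1). Adipoq and Plin1 passed the filter through the Control mice, where they were high. Outside Control they reached 0.1 FPKM only in IgG Ab mouse 2 (1.23 and 0.148 FPKM), so their calls are no support for a difference. From IgG Ab to anti-S100a9 Ab, where 6.72% of all genes were higher and 14.4% lower, Car1 and Slc26a3 rose among 10 colon epithelium markers, and Mt4, Sprr1a, Lor and Dsg3 fell among 10 squamous markers. Here too Dsg3 is a gene that passed the filter only through the IgG Ab mice. Of 7 smooth muscle markers Myh11 rose by 2.01 (SE 0.54, limma adjusted p = 0.033), and 5 were higher by the study's threshold, against 7.64% of all genes by that threshold. Msln fell among 4 mesothelial markers, and Dlx3 was at 0.261 FPKM or less in the anti-S100a9 Ab mice. The part of these cell types in the keratin differences was not tested. S100a9 itself was at 0.370, 0.859 and 0.575 FPKM in the Control mice, 63.1, 173 and 267 FPKM in the IgG Ab mice and 10.3, 11.6 and 5.54 FPKM in the anti-S100a9 Ab mice.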

How the data were processed

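Keratin levels were read from deposited FPKM values, 1 table of 21544 rows per sample; 46 rows with a repeated symbol were summed. Which column was FPKM was read from the values, as the headers name no unit. Per the labels' processing notes, the authors used TopHat, Cufflinks, HTSeq and DESeq on build GRCm38, with versions not given in the sources used here. Because FPKM is not a count, DESeq was not applied: log2(FPKM + 0.1) was fitted with limma 3.58.1 (R 4.3.3, intensity trend) over all 9 samples and the 15278 genes that reached 0.1 FPKM in 3 or more of them, with Benjamini-Hochberg adjusted p under 0.05. The labels give replicates as biological, so p-values rest on the spread between mice, 3 a group. For each gene this spread was 1 estimate pooled over all 3 groups and moderated across genes. A gene therefore has the same SE in every comparison. Depth is unknown except as estimated from the lowest value steps. The keratins and gene lists were chosen with earlier results of these data known. Named genes are all keratins passing the filter. Full statistics go to called genes other than Krt35 and to 6 simple epithelial keratins. The limma fit was tested on simulated data in R. Reading, sums and sequence searches used Python 3.11.15 and pandas 2.3.3 and were not tested on simulated data. Genome positions are from GENCODE and promoters from RefSeq.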

Additional observations from a re-analysis of the deposited data

How the results depend on the processing

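The counts of keratins called higher in AOM/DSS + IgG Ab vs Control (10) changed to 6 when only the 2 groups were fitted (without Krt13, Krt15, Krt18 and Krt84), and ranged from 3 to 10 over fits that left out 1 mouse; the lower count ranged from 0 to 1. For anti-S100a9 Ab vs IgG Ab, the 0 higher became 1, Krt20, with the study's threshold, with FPKM rescaled to a common sum, with quantile normalization, with the replicate block and with centring on Epcam and Cdh1 (chosen after seeing the data), and ranged from 0 to 1 without 1 mouse; the 10 lower ranged from 3 to 10. Deviations of same-numbered mice correlated at −0.187 to 0.249, with 5 of 9 pairs over 0.1, and those of differently numbered mice at −0.267 to 0.19. These values cannot show whether the mouse numbers mark pairs. With the replicate block 10 were still higher in IgG Ab vs Control and 10 lower in anti-S100a9 Ab vs IgG Ab, besides the Krt20 call given above. Krt19, at 0.02 for the antibody, ranged from −0.139 to 0.179 without 1 mouse, below 0 without IgG Ab mouse 1 (−0.139) or anti-S100a9 Ab mouse 2 (−0.116); under quantile normalization the anti-S100a9 Ab vs Control differences of Krt18 and Krt19 were 0 and 0.094. Krt35 exceeded Krt23 in IgG Ab vs Control with a pseudocount of 0.01 (8.16 against 5.96) and on rescaling to a common sum (6.80 against 6.01). The cause was not tested. Scaling moved the median difference of all genes by over 0.1 in 5 instances: by 0.111 and 0.197 on rescaling to a common sum (anti-S100a9 Ab vs IgG Ab and vs Control), and by −0.103 with median-of-ratios and −0.124 with quantile scaling (IgG Ab vs Control), and by 0.116 on centring on Epcam and Cdh1 (anti-S100a9 Ab vs IgG Ab). The 3 mice in each group limit the precision.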
